A study of Mus musculus with 9 samples.

Results

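Fatty acids reach the hepatocyte cytosol through a chain of proteins, and 10 genes of that chain were described here in mouse liver: Lpl, Vldlr, Cd36, the fatty acid transport protein genes Slc27a1, Slc27a2, Slc27a4 and Slc27a5, and the fatty acid binding protein genes Fabp1, Fabp2 and Fabp4. They were picked by gene symbol from 17046 genes listed in either of 2 deposited tables, and all 10 were found in both. RNA sequencing covered 9 liver libraries in 3 groups of 3, and each library is called a liver below. The labels do not say whether the 3 libraries of a group come from separate animals. Mettl3 ethanol-fed mice were wild-type mice that received by tail vein an AAV8 virus carrying Mettl3 with a FLAG tag and a WPRE element, and were later given an ethanol diet. Ethanol-fed mice received a control virus with a cloning site in place of Mettl3, the same tag and element, and the same ethanol diet, and pair-fed mice received the control virus and the control diet. The series' design text names both viruses, while the sample labels give only the genotype and the feeding. All 3 groups carried a virus with the hepatocyte-specific TBG promoter, were placed on a diet 3 weeks after injection for 10 days, and were then given a binge dose: ethanol for the ethanol groups, maltose for the pair-fed group. Strain, age and sex are not given in the sources used here, and no Mettl3 virus group on the control diet was analysed here, so the effect of the virus was measured under ethanol alone.

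Lipoprotein lipase (Lpl) frees fatty acids from circulating triglyceride-rich particles, and the VLDL receptor (Vldlr) binds such particles. CD36 is a membrane receptor for long-chain fatty acids. The transport proteins of the SLC27 family couple uptake to activation by coenzyme A; in liver SLC27A2 and SLC27A5 also act as very-long-chain acyl-CoA and bile acid-CoA enzymes. Inside the cell, binding proteins carry fatty acids: FABP1 is the abundant liver form, FABP2 the intestinal form and FABP4 the form of adipocytes, macrophages and capillary endothelium. METTL3 is the catalytic subunit of the m6A RNA methyltransferase.

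Mettl3 was measured first as a check of the labels. It averaged 32.3 ± 6.81 FPKM (reads per unit of gene length and of sequencing depth; SD, n = 3) in Mettl3 ethanol-fed livers, 4.69 ± 0.842 FPKM in ethanol-fed livers and 3.48 ± 0.447 FPKM in pair-fed livers. Every library labelled as Mettl3 overexpressing was above the other 6. Libraries held 34656480 to 38159563 reads over the listed genes. Hepatocyte markers dominated: 7 markers summed to 60653 to 69573 FPKM in Mettl3 ethanol-fed livers, 62955 to 75403 FPKM in ethanol-fed livers and 61171 to 69893 FPKM in pair-fed livers. The sum hides opposite movements of single markers. Fgb averaged 14456 FPKM in Mettl3 ethanol-fed livers and 4153 FPKM in pair-fed livers, while Ttr averaged 2353 and 3814 FPKM in the same order. In whole liver, fewer cells of a type and less RNA per cell cannot be told apart.

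Ethanol feeding went with lower levels of the most abundant transport and binding transcripts. Fabp1 averaged 3042 FPKM in ethanol-fed livers, against 8737 FPKM in pair-fed livers, and Slc27a2 averaged 284 FPKM in ethanol-fed livers, against 682 FPKM in pair-fed livers. Fabp4 was 2.60 times higher in ethanol-fed livers, and Cd36 did not pass the test. Between the Mettl3 ethanol-fed and the ethanol-fed livers none of the 8 genes that could be tested passed. Vldlr, not tested there and at 0.453 times the ethanol-fed mean, was the only gene of the 10 whose livers did not overlap. That count is near the share over all genes tested there, of which 12.8% did not overlap.

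The sequences before the starts of 3 of these genes are shown because they belong to the genes that carry these results: Fabp1 and Slc27a2, which were lower under ethanol, and Cd36, which was not called. They are from RefSeq on build GRCm38.p6, each with the 250 bases that precede an annotated start, at chr6:71199629-71199878 (plus strand) for Fabp1, chr2:126552774-126553023 (plus strand) for Slc27a2 and chr5:17835897-17836146 (minus strand) for Cd36. Capitals mark a match to a direct repeat with 1 base between the repeats, the form of site that PPAR alpha bound to RXR is known to occupy.
Fabp1: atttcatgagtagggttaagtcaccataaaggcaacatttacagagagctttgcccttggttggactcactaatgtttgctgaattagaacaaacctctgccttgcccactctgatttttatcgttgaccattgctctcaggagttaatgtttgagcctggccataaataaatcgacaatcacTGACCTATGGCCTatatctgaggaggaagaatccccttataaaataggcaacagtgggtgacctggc
Slc27a2: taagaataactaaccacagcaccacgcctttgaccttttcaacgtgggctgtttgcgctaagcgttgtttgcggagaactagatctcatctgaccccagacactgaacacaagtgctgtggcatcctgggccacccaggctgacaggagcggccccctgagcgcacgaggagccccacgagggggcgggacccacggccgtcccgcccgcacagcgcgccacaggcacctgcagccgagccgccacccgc
Cd36: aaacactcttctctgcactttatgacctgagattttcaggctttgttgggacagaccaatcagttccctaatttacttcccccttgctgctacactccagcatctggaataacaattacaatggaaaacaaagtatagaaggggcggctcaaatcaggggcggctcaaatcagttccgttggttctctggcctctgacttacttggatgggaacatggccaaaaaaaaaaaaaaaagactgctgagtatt
The motif searched was AGGNCANAGGNCA, with N for any base, on both strands, and as TGNCCTNTGNCCT it reads on the opposite strand. Windows of 300 bases, 250 before and 50 after the start, were available for 7 of the 10 genes, in 10 windows. Only the Fabp1 window held a match, TGACCTATGGCCT, on the strand opposite to the gene, 67 to 55 bases before its start. Of all 32851 RefSeq windows of this length, 125 (0.381%) held a match. The match is a description of letters, and no binding was measured.

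The levels, scaled to gene length, ran from 0.413 FPKM (Vldlr) to 10113 FPKM (Fabp1) among the 10 genes, with Fabp1 first in every group. Slc27a2 and Slc27a5 came next, then Fabp2 and Cd36. In pair-fed livers Slc27a2 lay above Slc27a5 in every liver, whereas their ranges overlapped in the Mettl3 ethanol-fed and in the ethanol-fed livers. Fabp4 stood above Lpl in every Mettl3 ethanol-fed and ethanol-fed liver and overlapped with it in pair-fed livers. Slc27a4 followed at about 7 FPKM, and Vldlr and Slc27a1 were lowest, at most 1.96 FPKM in any liver.

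**Figure D1:**
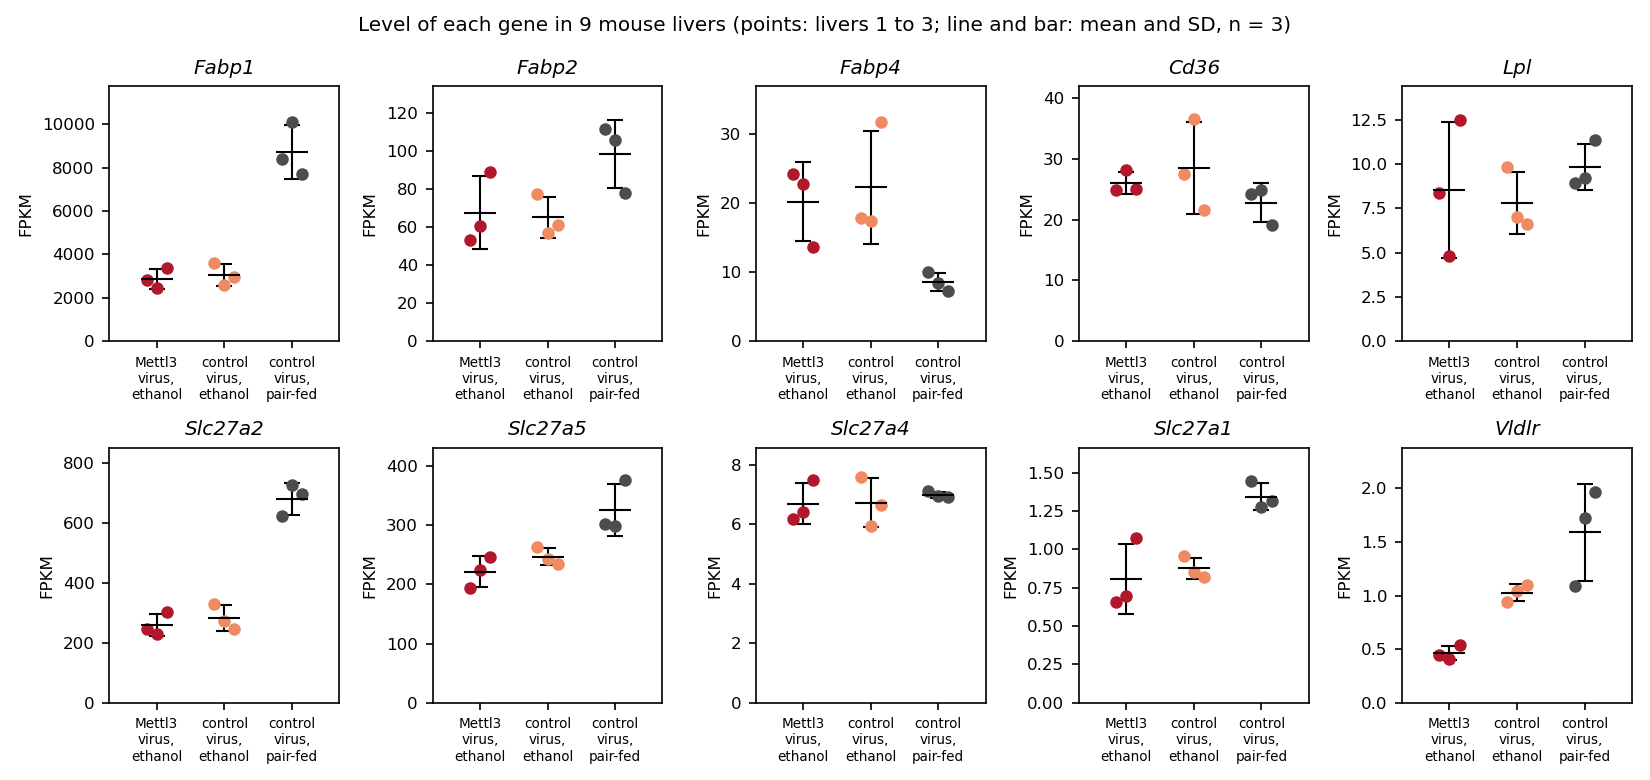
Levels of the 10 genes in FPKM (vertical axes, each from 0) in Mettl3 ethanol-fed, ethanol-fed and pair-fed livers; points are livers 1 to 3, the line is the mean and the bar the SD (n = 3). Fabp1 and Slc27a2 lie lower, and Fabp4 higher, in all 6 ethanol-exposed livers than in the 3 pair-fed livers, while Vldlr is lowest in the 3 Mettl3 ethanol-fed livers.

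Differences were tested with limma on log2(FPKM + 1), with Benjamini-Hochberg adjustment over all genes tested and a threshold of 0.05 on the adjusted p. A log2 fold change below is on this scale, on which low genes change by less than their FPKM ratio, and "called" means past that threshold. Nothing in the labels says whether the 3 libraries of a group come from separate animals, so the p-values measure the spread between these samples. Ethanol-fed and pair-fed livers each enter more than 1 comparison, so the comparisons are not independent of each other. Between ethanol-fed and pair-fed livers, 1 of the 10 genes was called higher (Fabp4) and 5 were called lower (Fabp1, Fabp2, Slc27a1, Slc27a2, Slc27a5). Across all 10064 genes tested, 36.0% were called, 10.0% higher and 26.0% lower. Of the calls, 72.2% were lower, against 48.1% under median-ratio scaling of the libraries. The same 6 genes were those whose groups did not overlap, which held for 52.6% of all genes, 15.4% higher and 37.2% lower. The median log2 fold change was -0.33 over the 10 genes and -0.14 over all genes. Slc27a1 reached the minimum of 1 FPKM in 3 libraries only through the pair-fed livers, where it is higher. Under median-ratio scaling, the median of all genes moved to 0.01 and 3 of the 10 genes were called (Fabp1, Slc27a2 and Fabp4), where 34.5% of all genes were, 17.9% higher and 16.6% lower. That count, and that of groups that did not overlap, are near the shares over all genes in either direction. They are no result about the 10 genes as a set.

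The liver binding protein Fabp1 (chr6:71199879-71205034) had 2803, 2455 and 3368 FPKM in Mettl3 ethanol-fed livers, 3598, 2582 and 2944 FPKM in ethanol-fed livers, and 8401, 10113 and 7696 FPKM in pair-fed livers. Every ethanol-exposed liver was below every pair-fed liver, and the ethanol groups overlapped. The log2 fold change of ethanol-fed over pair-fed livers was -1.53 (SE 0.16, adjusted p = 0.00126, limma). It ran from -1.65 to -1.34 over the other settings tried and was called in each. Mettl3 ethanol-fed livers were also below pair-fed livers, with a log2 fold change of -1.61 (SE 0.17, adjusted p = 0.000477, limma). Against ethanol-fed livers their log2 fold change was -0.08, with a 95% interval from -0.52 to 0.36 (adjusted p = 0.898, limma). In the authors' deposited table the log2 fold change of Fabp1 was -1.34 for ethanol-fed against pair-fed livers (q = 2.80e-14).

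The intestinal form Fabp2 (chr3:122895072-122899506) was lower under ethanol by a smaller margin. It had 53.2, 60.4 and 89.2 FPKM in Mettl3 ethanol-fed livers, 77.3, 56.9 and 61.1 FPKM in ethanol-fed livers, and 112, 106 and 78.1 FPKM in pair-fed livers. The highest ethanol-fed liver lay just under the lowest pair-fed liver, and Mettl3 ethanol-fed liver 3 lay above it. The log2 fold change of ethanol-fed over pair-fed livers was -0.59 (SE 0.17, adjusted p = 0.0334, limma). The call was lost under median-ratio scaling (-0.40, adjusted p = 0.0769), with no filter on low values (0.0563), with all 9 libraries in the fit (0.0614), and when pair-fed livers 1 and 2 (adjusted p = 0.108 and 0.114) or ethanol-fed livers 2 and 3 (0.0966 and 0.0944) were left out in turn. In the authors' deposited table its q was 0.0637. Mettl3 ethanol-fed against pair-fed livers gave -0.55 (adjusted p = 0.0562, limma), and was called without Mettl3 ethanol-fed liver 3 (-0.77, 0.00727), pair-fed liver 3 (-0.71, 0.0417) or ethanol-fed liver 1 (0.0491). Against ethanol-fed livers the log2 fold change was 0.03, with a 95% interval from -0.48 to 0.54.

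Fabp2 is known chiefly from the intestine, and 3 enterocyte markers summed to 0.315 to 0.486 FPKM in Mettl3 ethanol-fed livers, 0.285 to 0.395 FPKM in ethanol-fed livers and 0.648 to 0.726 FPKM in pair-fed livers. None of the 3 reached the FPKM minimum, and their part in the Fabp2 result was not tested. The antisense gene 4933405D12Rik covers all 4435 bases of Fabp2, and whether counting used strand is not given in the sources used here. The antisense gene is not among the genes listed, and whether its reads were counted with Fabp2 cannot be told here.

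Fabp4 (chr3:10204342-10208616), the form of adipocytes, macrophages and endothelium, moved the other way. It had 24.2, 22.7 and 13.6 FPKM in Mettl3 ethanol-fed livers, 17.8, 17.4 and 31.8 FPKM in ethanol-fed livers, and 9.95, 8.44 and 7.30 FPKM in pair-fed livers. All 6 ethanol-exposed livers were above all 3 pair-fed livers, with the highest value in ethanol-fed liver 3. Ethanol-fed over pair-fed livers gave a log2 fold change of 1.24 (SE 0.23, adjusted p = 0.00762, limma), and 0.97 without ethanol-fed liver 3 (adjusted p = 0.00838, limma). Fabp4 was called under every other setting tried, with adjusted p of at most 0.0386. Mettl3 ethanol-fed over pair-fed livers gave a log2 fold change of 1.11 (SE 0.27, adjusted p = 0.00883, limma). Against ethanol-fed livers it was -0.13, with a 95% interval from -0.82 to 0.57 (adjusted p = 0.898, limma).

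Markers of the cell types known for Fabp4 were read beside it. Of 10 sinusoidal endothelial markers, 1 was called higher (Lyve1) and 5 lower (Stab2, Clec4g, Dnase1l3, Kdr and Fcgr2b) in ethanol-fed than in pair-fed livers. Of all genes, 10.0% were called higher there and 26.0% lower. Under median-ratio scaling 2 were higher (Lyve1 and Pecam1) and 4 lower, where 17.9% of all genes were called higher and 16.6% lower. Their sum was 127 to 147 FPKM in Mettl3 ethanol-fed livers, 121 to 130 FPKM in ethanol-fed livers and 148 to 172 FPKM in pair-fed livers. Lyve1, a hyaluronan receptor singled out here after its values were seen, had 19.1, 19.9 and 9.71 FPKM in Mettl3 ethanol-fed livers, 16.1, 16.3 and 30.5 FPKM in ethanol-fed livers, and 5.32, 4.87 and 3.85 FPKM in pair-fed livers. It was highest in ethanol-fed liver 3 and, among the ethanol-exposed livers, lowest in Mettl3 ethanol-fed liver 3, as Fabp4 was. The VEGF receptor gene Kdr, also endothelial, was called lower in ethanol-fed livers, with a log2 fold change of -0.93 (SE 0.20, adjusted p = 0.0122, limma). Of 10 Kupffer cell markers 9 were called lower in ethanol-fed than in pair-fed livers (8 under median-ratio scaling), where 26.0% of all genes were (16.6% under that scaling). They summed to 132 to 240 FPKM in Mettl3 ethanol-fed livers, 152 to 226 FPKM in ethanol-fed livers and 289 to 328 FPKM in pair-fed livers. The 7 markers of monocyte-derived macrophages summed to 22.0 to 45.4, 22.1 to 37.2 and 27.4 to 37.8 FPKM in the same order of groups. Only Spp1 of those 7 could be tested, and it was not called in any comparison. The 4 adipocyte markers with values in all groups summed to 1.06 to 2.42 FPKM in Mettl3 ethanol-fed livers, 1.96 to 3.45 FPKM in ethanol-fed livers and 0.910 to 2.49 FPKM in pair-fed livers. Among them Plin1 was listed at 0 to 0.0129 FPKM in Mettl3 ethanol-fed livers, 0 to 0.0559 FPKM in ethanol-fed livers and 0 to 0.103 FPKM in pair-fed livers. Cfd was at 0 to 0.0853 FPKM in Mettl3 ethanol-fed, 0 to 0.175 FPKM in ethanol-fed and 0.117 to 0.925 FPKM in pair-fed livers. Slc2a4 had 0.705 to 1.23 FPKM in ethanol-fed livers and 0.0512 to 0.0602 FPKM in pair-fed livers. In Mettl3 ethanol-fed livers Slc2a4 had 0.0684, 0.0776 and 1.37 FPKM. Plin4 had 1.69, 1.22 and 2.49 FPKM in ethanol-fed livers and 1.41, 1.04 and 0.733 FPKM in pair-fed livers. Its range in Mettl3 ethanol-fed livers was 0.968 to 1.08 FPKM. Adipoq was at 0 to 0.0653 FPKM in ethanol-fed livers and 0 to 0.606 FPKM in pair-fed livers, and neither Adipoq nor Retn was analysed here in Mettl3 ethanol-fed livers. The part of these cell types in the Fabp4 result was not tested.

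**Figure D2:**
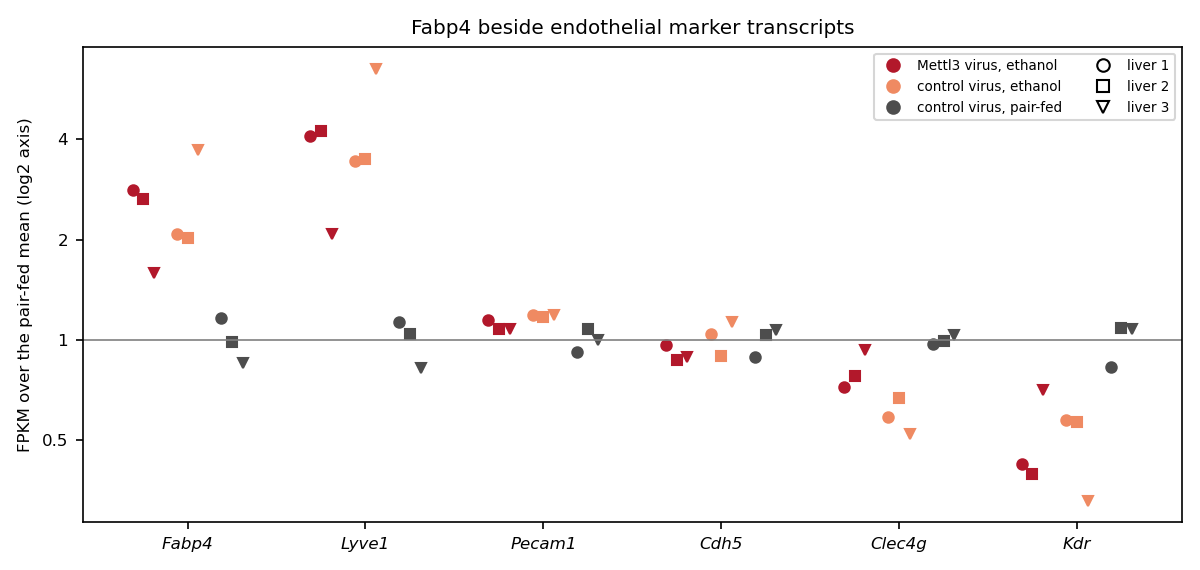
Fabp4 and 5 endothelial marker transcripts in each liver, as FPKM divided by the pair-fed mean of the gene (log2 axis); colours are the groups and shapes are livers 1 to 3. Fabp4 and Lyve1 lie above the pair-fed livers in all 6 ethanol-exposed livers, while Pecam1 and Cdh5 stay near 1 and Clec4g and Kdr lie below 1 in those livers. Of the 10 endothelial markers read, 1 was called higher (Lyve1) and 5 lower in ethanol-fed than in pair-fed livers.

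The binding proteins were also taken as a family of 6 genes with values in all 9 livers. Their summed level was 3037 ± 467 FPKM in Mettl3 ethanol-fed livers, 3193 ± 514 FPKM in ethanol-fed livers and 8887 ± 1268 FPKM in pair-fed livers (SD, n = 3 each). Fabp1 made up 94.6%, 95.2% and 98.3% of that sum in the Mettl3 ethanol-fed, ethanol-fed and pair-fed livers. The share of Fabp4 was 0.690%, 0.712% and 0.0972% in the same order of groups. With Fabp1 lower, the share of another gene can be larger without a higher level. Fabp2 held 2.04% in ethanol-fed and 1.11% in pair-fed livers, though it averaged 65.1 and 98.5 FPKM in them. Of the binding proteins outside the 10 genes, Fabp5, the epidermal form, averaged 62.6 ± 7.42 FPKM in Mettl3 ethanol-fed livers, 56.8 ± 10.3 FPKM in ethanol-fed livers and 34.8 ± 18.6 FPKM in pair-fed livers. Neither Fabp5 nor the brain form Fabp7 was called in any comparison. Under median-ratio scaling Fabp5 was called higher in Mettl3 ethanol-fed than in pair-fed livers (log2 fold change 1.27, adjusted p = 0.0321, limma).

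Slc27a2 (chr2:126553024-126588243), the most abundant transport protein transcript in liver, had 248, 231 and 302 FPKM in Mettl3 ethanol-fed livers, 332, 272 and 248 FPKM in ethanol-fed livers, and 623, 727 and 697 FPKM in pair-fed livers. The 6 ethanol-exposed livers lay far below the 3 pair-fed livers and overlapped with each other. Its log2 fold change in ethanol-fed over pair-fed livers was -1.27 (SE 0.13, adjusted p = 0.00125, limma), and it was called under every other setting, between -1.39 and -1.08. Mettl3 ethanol-fed over pair-fed livers gave -1.39 (SE 0.14, adjusted p = 0.000416, limma), and over ethanol-fed livers -0.12 with a 95% interval from -0.51 to 0.26 (adjusted p = 0.807, limma). Slc27a2 shares 1256 bases with Gm26697 on the opposite strand, which averaged at most 0.178 FPKM in any group.

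Slc27a5 (chr7:12988346-12998192), the liver bile acyl-CoA synthetase and transport protein, was lower by less. It had 194, 224 and 246 FPKM in Mettl3 ethanol-fed livers, 263, 242 and 235 FPKM in ethanol-fed livers, and 303, 298 and 376 FPKM in pair-fed livers. Neither ethanol group overlapped with the pair-fed livers. The log2 fold change of ethanol-fed over pair-fed livers was -0.39 (SE 0.12, adjusted p = 0.0386, limma), but -0.21 under median-ratio scaling (adjusted p = 0.222, limma). The call was also lost with no filter on low values (adjusted p = 0.0570, limma) and with a replicate block (0.0805), and when pair-fed livers 1, 2 and 3 (0.0724, 0.0759 and 0.121) or ethanol-fed livers 2 and 3 (0.0888 and 0.102) were left out in turn. Over all settings tried its adjusted p reached 0.251 (limma). Mettl3 ethanol-fed over pair-fed livers gave -0.55 (SE 0.13, adjusted p = 0.00775, limma), and -0.28 under median-ratio scaling (adjusted p = 0.0870, limma). Over ethanol-fed livers the log2 fold change was -0.16, with a 95% interval from -0.47 to 0.14 (adjusted p = 0.705, limma).

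The broadly expressed Slc27a4 (chr2:29802634-29817522) had 6.19, 6.43 and 7.50 FPKM in Mettl3 ethanol-fed livers, 7.59, 5.94 and 6.67 FPKM in ethanol-fed livers, and 7.12, 6.95 and 6.94 FPKM in pair-fed livers. The groups overlapped throughout, and the pair-fed livers varied least, with a coefficient of variation of 1.44%. The log2 fold change of ethanol-fed over pair-fed livers was -0.06, with a 95% interval from -0.30 to 0.19, and its sign turned to 0.11 under median-ratio scaling. Slc27a1 (chr8:71568728-71587307), the form of muscle and fat, had 0.655, 0.695 and 1.07 FPKM in Mettl3 ethanol-fed livers, 0.956, 0.850 and 0.823 FPKM in ethanol-fed livers, and 1.44, 1.28 and 1.31 FPKM in pair-fed livers. Every ethanol-exposed liver was below every pair-fed liver, at 117 to 195 reads in Mettl3 ethanol-fed, 146 to 158 reads in ethanol-fed and 225 to 258 reads in pair-fed livers. The ethanol-fed mean was 0.652 times the pair-fed mean (log2 fold change -0.32, SE 0.08, adjusted p = 0.0243, limma). The call was lost under median-ratio scaling (adjusted p = 0.0505, limma), with a replicate block (0.0512) and when ethanol-fed livers 2 and 3 were left out in turn (0.0628 and 0.0523). Mettl3 ethanol-fed over pair-fed livers gave -0.38 (adjusted p = 0.0154, limma), which was not called without pair-fed liver 1 (0.0560), Mettl3 ethanol-fed liver 1 (0.0600) or Mettl3 ethanol-fed liver 2 (0.0554). Slc27a1 passed the filter of that fit only with the 3 pair-fed livers, where it is higher. Of the others, 1 Mettl3 ethanol-fed liver and 0 ethanol-fed livers reached 1 FPKM.

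The 6 transport protein genes summed to 489 ± 58.5 FPKM in Mettl3 ethanol-fed livers, 539 ± 58.0 FPKM in ethanol-fed livers and 1017 ± 75.2 FPKM in pair-fed livers (SD, n = 3 each). Slc27a2 held 55.1%, 49.97% and 54.3% of the sum in Mettl3 ethanol-fed livers, 55.0%, 52.2% and 50.6% in ethanol-fed livers, and 66.7%, 70.3% and 64.5% in pair-fed livers. Slc27a5 held a mean of 45.2%, 46.0% and 32.0% in the Mettl3 ethanol-fed, ethanol-fed and pair-fed livers. These shares do not depend on how libraries are scaled, and in all 6 ethanol-exposed livers the Slc27a2 share was below that of the pair-fed livers. The remaining members, Slc27a3 and Slc27a6, were below the FPKM minimum and were not tested.

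**Figure D3:**
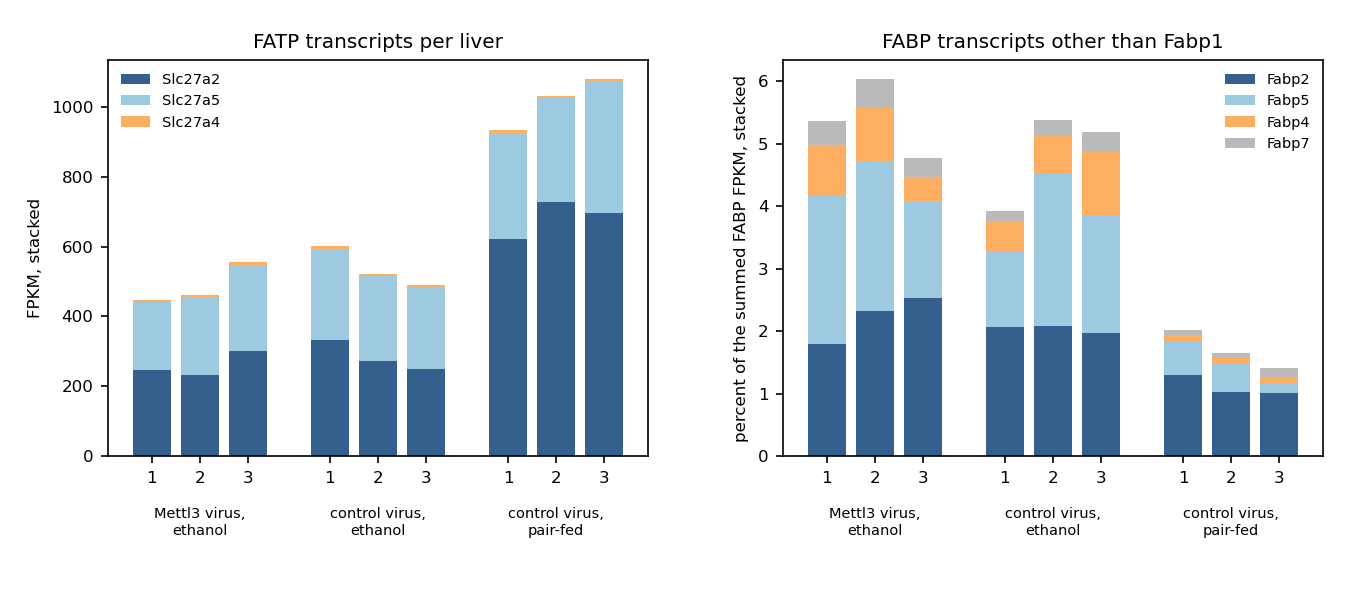
Left, summed FPKM of transport protein transcripts in each liver, stacked by gene; right, share of the summed binding protein FPKM held by the genes other than Fabp1, in percent. Bars run from Mettl3 ethanol-fed to ethanol-fed to pair-fed livers 1 to 3. The transport protein sum averages 489, 539 and 1017 FPKM, and the share outside Fabp1 is larger in each of the 6 ethanol-exposed livers than in any pair-fed liver. That share also depends on the level of Fabp1, which is lower in those 6 livers. Slc27a1, Slc27a3, Slc27a6 and Fabp12 are too low to be drawn.

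Cd36 (chr5:17781690-17888959), the membrane fatty acid receptor, overlapped between groups in every comparison. It had 24.9, 28.1 and 25.1 FPKM in Mettl3 ethanol-fed livers, 27.5, 36.6 and 21.6 FPKM in ethanol-fed livers, and 24.3, 24.9 and 19.1 FPKM in pair-fed livers. Ethanol-fed liver 2 was the highest of the 9, and pair-fed liver 3 the lowest. Ethanol-fed over pair-fed livers gave a log2 fold change of 0.29, with a 95% interval from -0.17 to 0.75 (SE 0.20, adjusted p = 0.275, limma). Over the other settings it ran from 0.10 to 0.49, with adjusted p of 0.0773 or more. The authors' deposited table gives a log2 fold change of 0.51 and a q of 0.0466 for the same comparison, and the cause of the difference in the call was not tested. Mettl3 ethanol-fed livers gave -0.10 against ethanol-fed livers (95% interval -0.55 to 0.35; adjusted p = 0.875, limma) and 0.19 against pair-fed livers (adjusted p = 0.398, limma).

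Lpl (chr8:68880555-68906932), the lipase of capillary surfaces, had the widest spread within a group of the 10 genes. It had 8.38, 4.79 and 12.5 FPKM in Mettl3 ethanol-fed livers, 9.82, 7.04 and 6.60 FPKM in ethanol-fed livers, and 8.95, 9.21 and 11.3 FPKM in pair-fed livers. Mettl3 ethanol-fed livers held both the lowest and the highest value of the 9, with a coefficient of variation of 45.0%, and all groups overlapped. The log2 fold change of ethanol-fed over pair-fed livers was -0.31, with a 95% interval from -0.68 to 0.07 (SE 0.16, adjusted p = 0.168, limma). Without ethanol-fed liver 1 it was -0.46 and was called (adjusted p = 0.0184, limma). Mettl3 ethanol-fed livers gave 0.05 against ethanol-fed livers (95% interval -0.67 to 0.77) and -0.26 against pair-fed livers (adjusted p = 0.453, limma).

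Vldlr (chr19:27216480-27254231) was low in liver and separated the 2 ethanol groups. It had 0.447, 0.413 and 0.538 FPKM in Mettl3 ethanol-fed livers, 0.941, 1.04 and 1.10 FPKM in ethanol-fed livers, and 1.09, 1.72 and 1.96 FPKM in pair-fed livers. These levels correspond to 195 to 261 reads in Mettl3 ethanol-fed livers, 415 to 521 reads in ethanol-fed livers and 518 to 930 reads in pair-fed livers. Every Mettl3 ethanol-fed liver was below every other liver, while ethanol-fed and pair-fed livers overlapped. Of 9706 genes tested between Mettl3 ethanol-fed and ethanol-fed livers, 12.8% had groups that did not overlap, 6.17% higher and 6.62% lower.

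Vldlr reached 1 FPKM in fewer than 3 of the 6 libraries of the Mettl3 ethanol-fed against ethanol-fed comparison and was therefore not tested there; the mean ratio was 0.453 and the log2 fold change -0.47. In the fits where it could be tested, its adjusted p ran from 0.322 to 0.619, with an unadjusted p of 0.00536 in the 9-library fit and of 0.000169 with limma-voom on recovered reads (log2 fold change -1.15). In the authors' deposited table the log2 fold change was -1.07 with a q of 0.000235. That table has 101 of its 16470 genes below a q of 0.05, and Vldlr has rank 14 by p. The cause of the difference between the tests was not tested. Mettl3 ethanol-fed over pair-fed livers gave a log2 fold change of -0.81 (SE 0.13, adjusted p = 0.00182, limma), called under every other setting, from -1.73 to -0.68. Vldlr passed the filter of that fit only with the 3 pair-fed livers, where it is high: 0 Mettl3 ethanol-fed and 2 ethanol-fed livers reached 1 FPKM. Ethanol-fed over pair-fed livers gave -0.34 (SE 0.14, adjusted p = 0.0944, limma), and -0.49 without pair-fed liver 1 (adjusted p = 0.0278, limma).

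**Figure D4:**
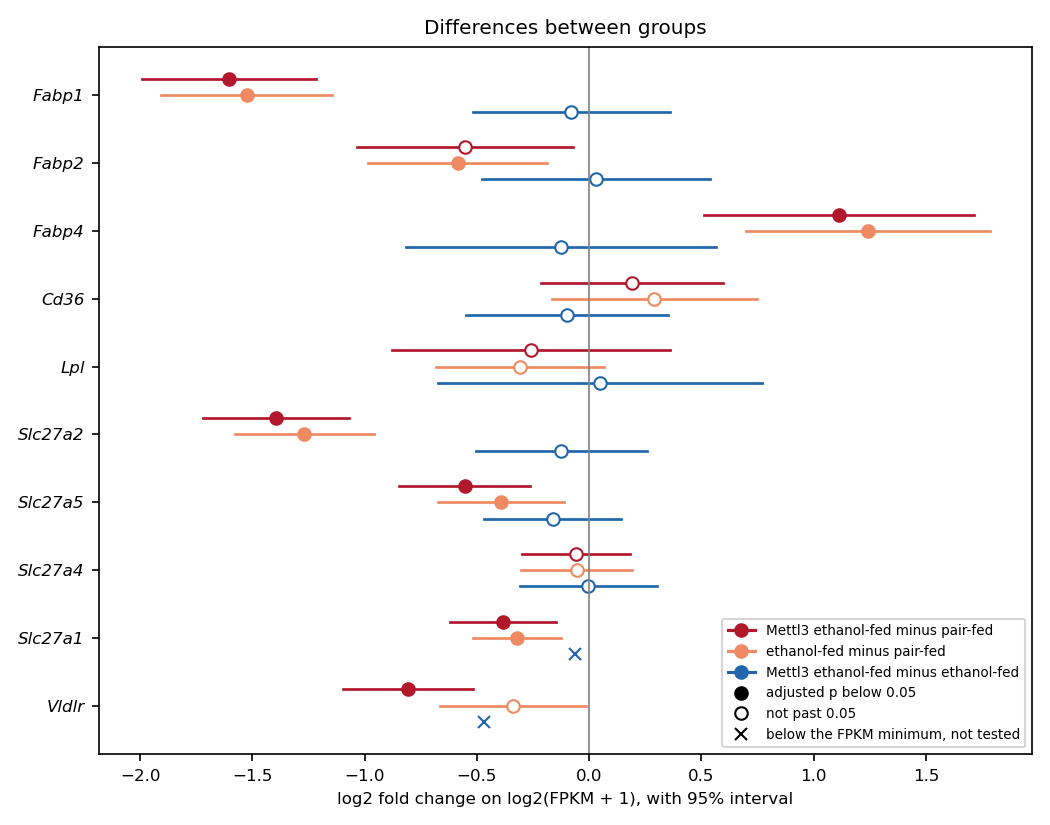
Log2 fold change on the log2(FPKM + 1) scale (horizontal axis) of each gene in the 3 comparisons, with 95% intervals; filled points are past an adjusted p of 0.05, open points are not, and crosses mark genes below the FPKM minimum. The intervals of Mettl3 ethanol-fed minus ethanol-fed livers span 0 for all 8 genes tested, while those of Fabp1 and Slc27a2 against pair-fed livers lie below -0.9.

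The comparison of Mettl3 ethanol-fed with ethanol-fed livers asked what Mettl3 overexpression in hepatocytes changed under ethanol. None of the 8 testable genes was called, and 1 of 9706 genes was (0.0103%), which was Mettl3 itself with a log2 fold change of 2.54 (SE 0.19, adjusted p = 0.0257, limma). At an unadjusted p below 0.05 there were 723 genes, none of them among the 8. By limma-voom on recovered reads, which could also test Slc27a1 and Vldlr, 0 of the 10 genes were called, and 1 gene in all. The median log2 fold change was -0.09 over the 8 genes and -0.04 over all genes. Mettl3 ethanol-fed against pair-fed livers gave 1 gene higher (Fabp4) and 5 lower (Fabp1, Slc27a1, Slc27a2, Slc27a5, Vldlr) of the 10, where 48.8% of 10229 genes were called, 13.9% higher and 34.9% lower. Of those calls, 71.5% were lower, against 45.5% under median-ratio scaling, which left 5 of the 10 genes called, where 46.8% of all genes were, 25.5% higher and 21.3% lower. The same 6 genes were those whose groups did not overlap, as did those of 63.6% of all genes, 19.3% higher and 44.2% lower. This count and that under median-ratio scaling are near the shares over all genes, and are no result about the 10 genes as a set. Slc27a1 and Vldlr are among the 5 called lower, though both passed the filter of that fit only with the pair-fed livers, where they are high. The median log2 fold change was -0.47 over the 10 genes and -0.18 over all genes, which median-ratio scaling moved to 0.04. The 6 neutrophil markers with values in all groups summed to 49.0 to 105 FPKM in Mettl3 ethanol-fed livers, 9.32 to 74.0 FPKM in ethanol-fed livers and 7.46 to 11.6 FPKM in pair-fed livers, and their part in these results was not tested.

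Further genes of the pathway were read from lists. Acyl-CoA synthetases, which trap fatty acids inside cells, had 0 members called higher and 4 lower of 7 tested between ethanol-fed and pair-fed livers, with a median log2 fold change of -0.44. Of all genes tested there, 10.0% were called higher and 26.0% lower, 36.0% in all, and their median was -0.14. Acsl1, the main long-chain form in liver, averaged 38.7 ± 12.2 FPKM in ethanol-fed livers and 159 ± 23.6 FPKM in pair-fed livers (log2 fold change -2.04, SE 0.22, adjusted p = 0.00125, limma). The medium-chain forms Acsm5 and Acsm1 had log2 fold changes of -1.28 (adjusted p = 0.00466) and -0.51 (adjusted p = 0.0118, limma). Under median-ratio scaling 3 members were called lower and 1 (Acsl4) higher, against 16.6% of all genes lower and 17.9% higher. In Mettl3 ethanol-fed against pair-fed livers Acsl1, Acsl5, Acsm1, Acsm3 and Acsm5 were called lower, with Acsl1 at 23.1 ± 8.15 FPKM, and Acsl5 was not called under median-ratio scaling. The 5 genes were among 7 tested, where 34.9% of all genes were called lower (21.3% under that scaling) and 48.8% in either direction.

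Of the acyl-CoA and fatty acid carriers, 1 was called higher and 3 lower of 5 tested in ethanol-fed against pair-fed livers (10.0% and 26.0% of all genes), and the median log2 fold change was -0.48. Dbi, the acyl-CoA binding protein, averaged 525 ± 30.3 FPKM in ethanol-fed livers and 833 ± 37.1 FPKM in pair-fed livers (log2 fold change -0.67, SE 0.10, adjusted p = 0.00335, limma). Acbd5, a peroxisomal acyl-CoA binding protein, had a log2 fold change of -1.56 (SE 0.19, adjusted p = 0.00199, limma), and Scp2, sterol carrier protein 2, -0.48 (adjusted p = 0.0102, limma). In Mettl3 ethanol-fed against pair-fed livers Acbd3, a Golgi protein, was called higher, with Acbd5, Dbi and Scp2 lower, of 5 tested. Of all genes 13.9% were called higher there and 34.9% lower. Scp2 was not called there under median-ratio scaling.

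Lipases and their regulators had 0 members called higher and 4 lower of 11 tested in ethanol-fed against pair-fed livers, with a median log2 fold change of -0.36. That count is near the share over all genes, of which 26.0% were called lower and 36.0% in either direction, and is no result about the list. The endothelial lipase gene Lipg averaged 0.666 ± 0.441 FPKM in ethanol-fed livers and 4.74 ± 0.246 FPKM in pair-fed livers (log2 fold change -1.82, SE 0.18, adjusted p = 0.00107, limma). It passed the filter through the 3 pair-fed livers, where it is high: 1 ethanol-fed liver and 0 Mettl3 ethanol-fed livers reached 1 FPKM. Hepatic lipase, Lipc, averaged 40.7 ± 1.60 FPKM in ethanol-fed livers and 79.5 ± 7.84 FPKM in pair-fed livers (log2 fold change -0.94, adjusted p = 0.00130, limma). The lipase maturation factor Lmf1 had -0.34 (adjusted p = 0.0285, limma). Under median-ratio scaling 2 members remained lower (Lipc and Lipg) and the lipase anchor Gpihbp1 was called higher. In Mettl3 ethanol-fed against pair-fed livers Lipc, Lipg, Angptl8 and Apoc1 were among the genes called lower; Angptl8, a secreted lipase inhibitor partner, averaged 11.9 ± 5.98 FPKM in Mettl3 ethanol-fed livers and 47.5 ± 10.1 FPKM in pair-fed livers. Apoc1 was not called there under median-ratio scaling, and Gpihbp1 was called higher. Without scaling, 5 of the 11 tested were called lower there, where 34.9% of all genes were, and 48.8% in either direction. That count is near those shares and is no result about the list.

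Of the lipoprotein receptor genes and their partners, Scarb1, the HDL receptor, averaged 18.7 ± 2.68 FPKM in ethanol-fed livers and 36.2 ± 3.38 FPKM in pair-fed livers (log2 fold change -0.92, SE 0.13, adjusted p = 0.00290, limma). Lrpap1, a chaperone of lipoprotein receptors, averaged 10.7 ± 0.439 FPKM in ethanol-fed livers and 15.6 ± 0.863 FPKM in pair-fed livers (log2 fold change -0.50, SE 0.09, adjusted p = 0.00704, limma). In Mettl3 ethanol-fed against pair-fed livers both were called lower, also under median-ratio scaling, with log2 fold changes of -1.10 for Scarb1 and -0.56 for Lrpap1.

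Of 13 transcriptional regulators, 0 were called higher and 7 lower in ethanol-fed against pair-fed livers (10.0% and 26.0% of all genes), and the median log2 fold change was -0.47. Among the 7, Ppargc1a, reached 1 FPKM in the 3 pair-fed livers alone. Ppara, the fatty acid-sensing nuclear receptor, averaged 13.0 ± 4.36 FPKM in ethanol-fed livers and 45.9 ± 4.74 FPKM in pair-fed livers (log2 fold change -1.78, SE 0.21, adjusted p = 0.00177, limma). The part of Ppara in the levels of the 10 genes was not tested. Nr1i3, the receptor CAR, averaged 44.5 ± 14.8 FPKM in ethanol-fed livers and 156 ± 7.89 FPKM in pair-fed livers (log2 fold change -1.84, adjusted p = 0.00158, limma). The factor Foxa1 had -0.80 (adjusted p = 0.00649, limma). Under median-ratio scaling 4 were called lower of 12 tested, where 16.6% of all genes were. In Mettl3 ethanol-fed against pair-fed livers Ppara, Nr1i3, Foxa1, Nr1i2, Ppargc1a and Srebf1 were called lower, all but Ppargc1a also under median-ratio scaling. These were 6 of 13 tested, where 34.9% of all genes were called lower (21.3% under that scaling) and 48.8% in either direction. The count of 6 is near those shares without scaling and is no result about the list. Between Mettl3 ethanol-fed and ethanol-fed livers 0 of the 43 genes tested over all these lists were called by limma, where 1 of all 9706 genes was. Of the 43, 6 had an unadjusted p below 0.05, where 723 of all 9706 genes had. Among the 6 were Acsl1, Acsl5, Angptl8, Fabp7 and Ppard. The median log2 fold changes there were -0.49 for the synthetases, -0.06 for the carriers, -0.02 for the lipases and -0.10 for the regulators.

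The genes most like Fabp1 over the 9 livers were found by the mean absolute difference of centred log2(FPKM + 1) among 10229 genes. Among the 5 closest were Ppm1k (0.0945), Vnn1 (0.104), Decr2 (0.106) and Mrnip (0.107). Mrnip averaged 0.354 ± 0.180 FPKM in Mettl3 ethanol-fed livers, 0.445 ± 0.0987 FPKM in ethanol-fed livers and 3.25 ± 0.596 FPKM in pair-fed livers. It passed the filter through the pair-fed livers, where it is high. Decr2, a peroxisomal dienoyl-CoA reductase, averaged 42.3 ± 4.88 FPKM in Mettl3 ethanol-fed livers, 53.3 ± 5.93 FPKM in ethanol-fed livers and 133 ± 16.0 FPKM in pair-fed livers. Vnn1, a pantetheinase, averaged 17.7 ± 2.28 FPKM in Mettl3 ethanol-fed livers, 20.7 ± 3.16 FPKM in ethanol-fed livers and 58.3 ± 7.51 FPKM in pair-fed livers. The genes most like Cd36 were Clec4n (0.0724), Ambra1 (0.0986), Kmt5b, Mios (0.101) and Rbm26 (0.105), in that order. Clec4n, a myeloid lectin receptor, averaged 2.56 ± 0.107 FPKM in Mettl3 ethanol-fed livers, 2.82 ± 1.22 FPKM in ethanol-fed livers and 2.18 ± 0.246 FPKM in pair-fed livers. The other 4 had smaller ranges than Cd36.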

How the data were processed

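Total RNA of mouse liver was sequenced in 9 libraries, and 2 tables of gene values were deposited. The submitters' processing notes name fastp, HISAT2, HTSeq and the mm10 build (GRCm38), without versions; whether counting used strand is not given in the sources used here. FPKM values were made by the authors, per the file headers. Both also give normalised signal (read counts divided by size factors and averaged), a fold ratio, a log2 fold change and p-values with q-values from DESeq2, all made by the authors, per the file headers. FPKM columns were joined on the gene name: 16842 and 16470 genes, with 16266 in both.

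FPKM was tested as log2(FPKM + 1) with limma 3.58.1 in R 4.3.3 (trend and robust moderation), for genes at 1 FPKM or more in at least 3 of the libraries fitted. Each comparison of adjacent groups used its own 6 libraries, and Mettl3 ethanol-fed against pair-fed used all 9. Whole reads were recovered from the deposited values, with at least 99.8% of values whole within 0.05. They were used for limma-voom (10 reads or more in 3 libraries). Alternatives were pseudocounts of 0.1 and 0.5, no filter, median-ratio scaling, other libraries in the fit, plain moderation, a replicate block, limma-voom and leaving out each library. Limma-voom with median-ratio scaling, and no filter with a pseudocount of 0.1, were added after seeing the data. The scripts were tested on simulated data. FPKM hides differences in total RNA.

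The 10 genes and all lists were chosen with earlier results of these data known. Every one of the 10 was named. Of the pathway lists, up to 3 called genes a list with the smallest adjusted p between ethanol-fed and pair-fed livers were named, as were all called genes in the Mettl3 comparisons; genes called only under median-ratio scaling or below an unadjusted p of 0.05 were named after their values were seen. For Fabp1 and Cd36 the 5 most similar genes were found. Some genes that these rules pick are not reported here. Livers were not treated as paired by replicate number. Deviations of same-numbered livers from their group means correlated between -0.412 and 0.394, and those of differently numbered livers between -0.513 and 0.580. With 3 livers a group these values cannot exclude a pairing.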

Additional observations from a re-analysis of the deposited data

How the results depend on the processing

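Fabp1, Slc27a2 and Fabp4 kept their direction and their call against pair-fed livers in both ethanol groups under every alternative run, and so did Vldlr in Mettl3 ethanol-fed livers. Of the 10 genes, 6 were called between ethanol-fed and pair-fed livers; 3 were called under median-ratio scaling, 3 under limma-voom with median-ratio scaling, and 3 to 7 when 1 library was left out (3 when pair-fed liver 2 or either of ethanol-fed livers 2 and 3 was left out, and 7 when ethanol-fed liver 1 was). Under limma-voom with median-ratio scaling the 3 were Fabp1, Slc27a2 and Fabp4, so Fabp2, Slc27a1 and Slc27a5 lost their calls there too. The genes called in all numbered 3625, and 1538 to 4743 with 1 library left out: 2157, 1538 and 1541 on leaving out pair-fed livers 1, 2 and 3 in turn, and 2392 on leaving out ethanol-fed liver 2. Between Mettl3 ethanol-fed and ethanol-fed livers, where 1 gene was called, there were 0 calls with no filter, 0 with no filter and a pseudocount of 0.1, 0 with the replicate block, 3 with all 9 libraries and 0 to 2 with 1 library left out (2 without ethanol-fed liver 1, 1 without Mettl3 ethanol-fed liver 2, and 0 without any other). Mettl3 ethanol-fed against pair-fed livers gave 5 to 7 of the 10 genes and 3342 to 5678 genes in all with 1 library left out.

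Small log2 fold changes turned in sign. For Slc27a4, ethanol-fed against pair-fed livers gave 0.11 with median-ratio scaling, 0.12 with limma-voom and median-ratio scaling, and -0.13 to 0.020 with 1 library left out. Mettl3 ethanol-fed against pair-fed livers gave 0.18 and 0.20 under the same scalings. Between Mettl3 ethanol-fed and ethanol-fed livers Slc27a4 gave 0.069 and 0.077, and Fabp1 gave 0.0043 with median-ratio scaling. With 1 library left out the range there was -0.28 to 0.091 for Cd36, -0.20 to 0.048 for Fabp1, -0.18 to 0.18 for Fabp2, -0.27 to 0.15 for Fabp4, -0.079 to 0.075 for Slc27a4 and -0.24 to 0.37 for Lpl, and for Lpl against pair-fed livers it was -0.55 to 0.061. The cause of these shifts was not tested. The labels do not say whether replicate numbers pair the livers. With them as a block, 4, 0 and 6 of the 10 genes and 2778, 0 and 4472 genes in all were called for ethanol-fed against pair-fed, Mettl3 ethanol-fed against ethanol-fed and Mettl3 ethanol-fed against pair-fed livers. Slc27a1 could not be tested between ethanol-fed and pair-fed livers without any 1 of the pair-fed livers. With 3 livers a group, precision is limited.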
